A study of Mus musculus with 34 samples.

Results

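Plk2 and 7 further genes of the p53 stress pathway (Plk3, Cdkn1a, Mdm2, Ccng1, Aen, Trp53inp1 and Phlda3) were followed through 5 lines of mouse cells that differ in their glucocorticoid receptor (GR). They are 8 of the 25124 genes in each deposited table, found by gene symbol, and every table counted the same RefSeq transcript for each of them. The 8 were picked because of how they had moved with hormone in an earlier reading of these libraries. Their changes with hormone within a line, and the differences of those changes between lines, therefore chose them and are given as a description, with no test.

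The study asked how receptor molecules assemble, and measured total RNA by sequencing in 34 libraries. The cells were C127 cells, labelled as an adenocarcinoma line, that had lost their own GR by knockout and carried a mouse GR fused to GFP in its place. The receptor was P631A, W718E, P643A, the double substitution W718S/Y722S, or wild type (WT). Each line was kept in charcoal-stripped serum, which is low in steroids. It was then given 100 nM dexamethasone (Dex), a synthetic glucocorticoid, for 2 h, or vehicle. There were 5 Dex and 5 vehicle libraries of W718S/Y722S and 3 and 3 of every other line. All groups, WT included, share the knockout and the tagged receptor. The library names of all lines share a prefix that is not explained, and no clone is named for a single line. An effect of a substitution and one of its cell line therefore cannot be told apart. Nothing states that replicates came from separate cultures, so the spread between them may be technical.

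GR waits in the cytoplasm until it binds hormone, then enters the nucleus and raises or lowers the transcription of target genes. The p53 protein is a transcription factor that stress or DNA damage stabilises. Its targets stop the cell cycle, promote apoptosis or feed back on p53 itself. The polo-like kinases Plk2 and Plk3 belong to these stress-responsive genes, unlike their relative Plk1, which drives mitosis. Cdkn1a encodes p21, an inhibitor of cyclin-dependent kinases, and is known both as a central p53 target and as a gene that glucocorticoids induce in several cell types.

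The DNA upstream of the starts of Plk2 and Cdkn1a is shown because these genes had the largest changes of the 8, in opposite directions. The windows are the 250 bases before a RefSeq start in mm10, read 5′ to 3′ on the plus strand. In the Plk2 window (chr13:110394794-110395043, just upstream of the counted transcript), capitals mark the cAMP response element TGACGTCA. In the window of a further Cdkn1a start (chr17:29090729-29090978, 2790 bases upstream of the counted one), capitals mark matches to the decamer that makes up a p53 response element. The window of the counted Cdkn1a start (chr17:29093519-29093768) held no match to any motif searched.
Plk2: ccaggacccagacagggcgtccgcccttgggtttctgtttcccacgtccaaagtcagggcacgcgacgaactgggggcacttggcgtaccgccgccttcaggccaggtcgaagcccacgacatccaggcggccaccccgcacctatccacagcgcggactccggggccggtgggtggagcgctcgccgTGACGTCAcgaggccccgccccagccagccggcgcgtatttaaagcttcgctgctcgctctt
Cdkn1a, further start: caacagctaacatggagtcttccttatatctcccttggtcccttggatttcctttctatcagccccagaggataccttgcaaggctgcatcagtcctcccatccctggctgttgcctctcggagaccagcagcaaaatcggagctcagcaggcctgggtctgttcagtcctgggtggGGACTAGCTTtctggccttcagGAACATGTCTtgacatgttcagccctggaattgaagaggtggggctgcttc
Cdkn1a, counted start: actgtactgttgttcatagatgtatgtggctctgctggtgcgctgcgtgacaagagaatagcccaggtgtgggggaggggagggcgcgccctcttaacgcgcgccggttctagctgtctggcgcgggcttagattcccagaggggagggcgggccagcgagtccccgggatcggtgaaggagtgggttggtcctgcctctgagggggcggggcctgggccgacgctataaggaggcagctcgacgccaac

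Both strands of these windows were searched for the GR hexamer AGAACA, the GR palindrome of this hexamer, 3 free bases and its reverse complement, TGACGTCA, the AP-1 motif TGANTCA, the TATA box TATAAA, and the p53 decamer, alone or as a pair with up to 13 bases between. Of the 8 genes, 7 had an entry in the RefSeq promoter table (Trp53inp1 had none). TGACGTCA occurred in Plk2 alone among them, 62 to 55 bases before the start, and in 1.55% of all 32807 windows of this length. The decamer pair upstream of the further Cdkn1a start lay 73 to 42 bases before it, with a spacer of 12 bases, and 0.064% of all windows held such a pair. Single p53 decamers stood in the windows of Mdm2, Ccng1 and Aen, against 7.13% of all windows. The GR hexamer, present in 16.1% of all windows, the GR palindrome, in 0.00914%, the AP-1 motif, in 6.75%, and the TATA box, in 12.4%, were in no window of the 7 genes. The Plk2 window was 68.4% G and C and that of the counted Cdkn1a start 64.8%, with a median of 52.4% over all windows. These are letter matches only.

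Levels below are read counts, recovered from the deposited log2 values and divided by the size factors of the table of each line, and are called normalised counts. A log2 change is Dex minus vehicle on log2 of the normalised count plus 1, with its standard error (SE) from limma. Libraries had 24 to 43.1 M total reads and 16.5 to 31.5 M counts in exons. The known glucocorticoid target Per1 was 4.39-fold (P631A) to 9.17-fold (WT) higher with Dex, and Sgk1 2.11-fold (P631A) to 15.4-fold (WT). Reads of the receptor gene Nr3c1 were present in every library, from 4876 to 7527 normalised counts. Of 9 epithelial markers none passed 100 normalised counts in every library, and Epcam, Krt5 and Elf5 stayed under 10 in all of them, which goes against an epithelial adenocarcinoma. The basal keratin gene Krt14 ranged between 533 and 1454 in W718S/Y722S, between 67.4 and 370 in the other mutant lines and between 4.62 and 7.62 in WT, and its part in differences between lines was not tested. The summed fibroblast markers reached 100690 to 178252, mostly from Vim and Col1a2. Of these 7 markers 4 passed 100 in every library, while Thy1 reached at most 11.2 and Dcn at most 10.2. Of the endothelial markers, Pecam1 and Kdr stayed under 10. Cdh5 ranged between 46.5 and 122 in the mutant lines and between 227 and 300 in WT. Ptprc and Cd3e of immune cells stayed under 10. The macrophage markers did not: Cd68 ranged between 106 and 168 in the mutant lines and between 224 and 266 in WT, and Lyz2 between 24.9 and 72.1 in the mutant lines and between 173 and 227 in WT. The part of Cdh5 and of these macrophage markers in differences between lines was not tested either. The library W718S/Y722S Dex replicate 1 stood apart from its group: its chi-square per gene was 9.95 to 11.6 against the other 4, which ranged between 1.19 and 2.76 among themselves. P631A Dex replicate 1 stood at 6.72 and 8.71 against the other 2 libraries of its group, which were at 2.15. The vehicle libraries of P631A were at 8.1 for replicates 1 and 2, and at 3.81 and 3.86 for the pairs with replicate 3. WT Dex replicate 1 stood at 5.55 and 5.88 against the other 2, which were at 1.26. In the vehicle group of W718E, replicate 3 stood at 4.88 and 7.73 against the other 2, which were at 2.1. For Plk2, Cdkn1a and Trp53inp1, values that rest on these Dex libraries are also given without them. For this vehicle library that is done for the W718E change of Plk2 only. Without WT Dex replicate 1 the WT log2 change was -1.04 for Plk2, 0.76 for Cdkn1a and 0.39 for Trp53inp1, and the differences of the mutant lines from WT were 0.45 to 0.90 for Plk2, -0.69 to -0.33 for Cdkn1a and -0.54 to -0.18 for Trp53inp1.

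With Dex, Plk2 was lower and Cdkn1a higher on average in all 5 lines, most in WT and least in P631A. Plk2 was at 90.8% of vehicle in P631A (log2 change -0.14 ± 0.10 SE) and at 48.3% in WT (-1.05 ± 0.04). Cdkn1a was at 105% of vehicle in P631A (0.07 ± 0.07) and 1.68-fold higher in WT (0.75 ± 0.03). The other 6 genes had log2 changes between -0.15 and 0.33 in every line, and the largest of these belonged to Trp53inp1 and Plk3.

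All 8 genes passed the filter on low values in every line. Under the rule used for the whole table (limma on the deposited log2 values, Benjamini-Hochberg adjusted p under 0.05), 0 of the 8 were called in P631A, where 0.221% of all 12691 tested genes were (0.197% higher with Dex and 0.0236% lower). In W718E, 1 of the 8 was called, Cdkn1a (higher), beside 0.524% of all tested genes (0.476% higher and 0.0476% lower). In P643A, 5 were called, Plk2 (lower) and Cdkn1a, Aen, Trp53inp1 and Phlda3 (higher), beside 4.78% of all (2.63% higher and 2.15% lower). In W718S/Y722S, 4 were called, Plk2 (lower) and Plk3, Cdkn1a and Aen (higher), beside 4.79% (2.55% higher and 2.24% lower). In WT, 4 were called, Plk2 (lower) and Cdkn1a, Trp53inp1 and Phlda3 (higher), beside 6.70% (3.96% higher and 2.74% lower). Without W718S/Y722S Dex replicate 1 the counts over all genes in that line were 478 higher and 493 lower, against 317 and 279 with it. Without WT Dex replicate 1 those in WT were 626 and 610, against 500 and 346, and without P631A Dex replicate 1 those in P631A were 43 and 6, against 25 and 3. Since this contrast chose the genes, nothing is read from these shares. The median log2 change of the 8 was 0.03 in P631A, 0.06 in W718E, 0.18 in P643A, 0.06 in W718S/Y722S and 0.15 in WT, and that of all tested genes was 0.00 in each line. Replicate numbers paired the libraries of W718E, and with the number as a block Plk2 (lower) was called there too, while the counts over all genes changed to 167 higher and 121 lower, against 60 and 6 without it.

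**Figure D1:**
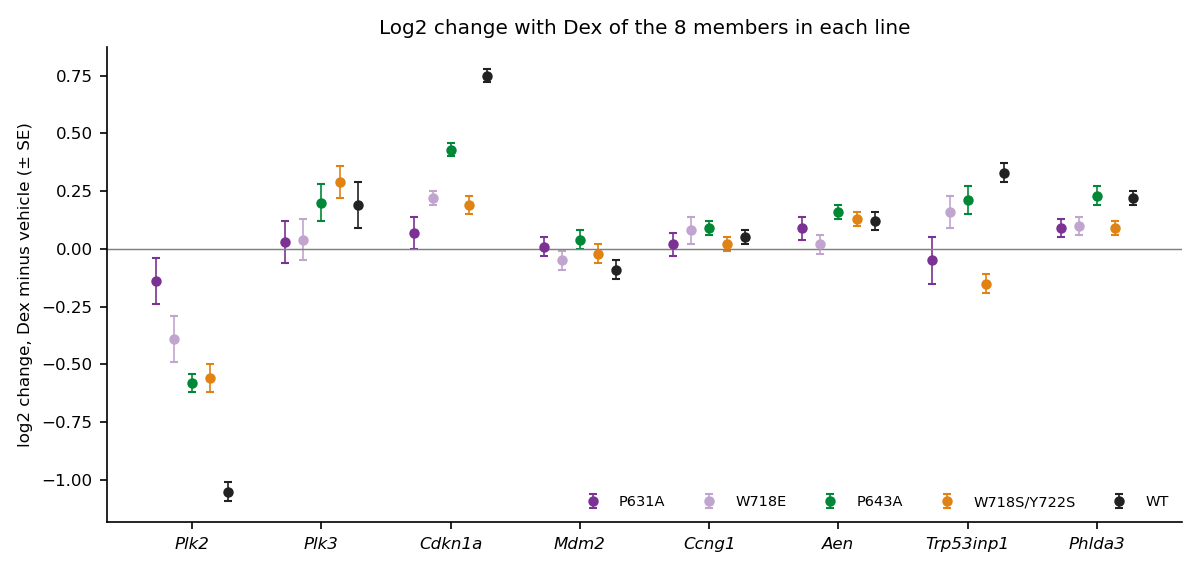
Log2 change with Dex (Dex minus vehicle, y axis, no unit) of each of the 8 genes (x axis) in P631A, W718E, P643A, W718S/Y722S and WT; points are estimates from normalised counts plus 1 and bars are ± 1 SE (n = 3 and 3 libraries, 5 and 5 for W718S/Y722S). Plk2 lies between -1.05 and -0.14 and Cdkn1a between 0.07 and 0.75, with WT at the far end of each, while Mdm2 and Ccng1 stay within 0.09 of 0.

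Plk2 encodes a polo-like kinase that acts in centriole duplication and, in neurons, in the weakening of synapses. It lies on chromosome 13 (mm10, 110395044 to 110400843, plus strand). In P631A it had 4671, 3565 and 3335 normalised counts in Dex libraries, against 3693, 4605 and 4363 in vehicle libraries. The groups overlapped, and the highest value of all 6 was a Dex library. In W718E it had 2360, 2709 and 2070 in Dex libraries, against 3411, 3333 and 2627 in vehicle libraries. Here too the groups overlapped, by 1 library on each side, but in each of the 3 pairs of the same number the Dex library was the lower one. The lowest vehicle value came from replicate 3, which stood apart, and the Dex library of the same number was the lowest Dex library.

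In P643A, Plk2 had 4327, 4584 and 4416 normalised counts in Dex libraries, against 6247, 7358 and 6417 in vehicle libraries. In W718S/Y722S it had 2318, 1960, 1859, 1743 and 1756 in Dex libraries, against 2878, 2847, 2776, 2721 and 2874 in vehicle libraries. The Dex libraries lay below the vehicle libraries in each of these 2 lines, and the highest Dex value of W718S/Y722S came from the library that stood apart. In WT it had 1577, 1615 and 1635 in Dex libraries, against 3464, 3166 and 3377 in vehicle libraries, again with no overlap. Groups without overlap, in either direction, made up 19.3% of tested genes in P643A, 6.26% in W718S/Y722S and 21.3% in WT.

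The log2 change of Plk2 was -0.39 ± 0.10 (SE) for W718E, -0.58 ± 0.04 for P643A and -0.56 ± 0.06 for W718S/Y722S, beside the values of P631A and WT above. Without W718S/Y722S Dex replicate 1 that of W718S/Y722S was -0.63, and without W718E vehicle replicate 3 that of W718E was -0.51. In P631A it was -0.29 without Dex replicate 1, and it ranged from -0.29 to -0.04 over all alternative settings and libraries left out. The mean of Plk2 was 66.7% of vehicle in P643A, 68% in W718S/Y722S and 76.2% in W718E. Set against WT, the difference in log2 change was 0.91 ± 0.13 for P631A (0.77 without Dex replicate 1), 0.66 ± 0.12 for W718E, 0.47 ± 0.06 for P643A and 0.49 ± 0.09 for W718S/Y722S (0.43 without Dex replicate 1). All 4 comparisons use the same WT libraries. Counted from the most negative change, Plk2 stood at position 883 of 12691 tested genes in P631A, 152 of 12598 in W718E, 50 of 12597 in P643A, 37 of 12436 in W718S/Y722S and 5 of 12626 in WT.

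Plk3 encodes the related stress-responsive kinase and lies on chromosome 4 (117128655 to 117133963, minus strand). It was the lowest of the 8 per length in the P631A, W718S/Y722S and WT lines, and near Trp53inp1 in the others: with vehicle it had 71.9 normalised counts per kb of transcript in WT (SD 8.54, n = 3), where Plk2 had 1198 (SD 55). In W718S/Y722S, Plk3 had 341, 287, 288, 276 and 337 normalised counts in Dex libraries, against 255, 241, 259, 269 and 221 in vehicle libraries. The groups did not overlap, and Plk3 was higher where Plk2 was lower. Its log2 change was 0.29 ± 0.07 (SE) in W718S/Y722S, 0.20 ± 0.08 in P643A and 0.19 ± 0.10 in WT, where groups did not overlap either. Without W718S/Y722S Dex replicate 1, whose value was the highest, that of W718S/Y722S was 0.25. It was 0.03 ± 0.09 in P631A and 0.04 ± 0.09 in W718E, with overlapping groups. The differences from WT lay between -0.17 and 0.10, each with an SE of 0.12 to 0.14. Exons of Plk3 share 84 bases (3.32%) with Tctex1d4 on the opposite strand, and without a strand option in the file headers reads there cannot be told apart.

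**Figure D2:**
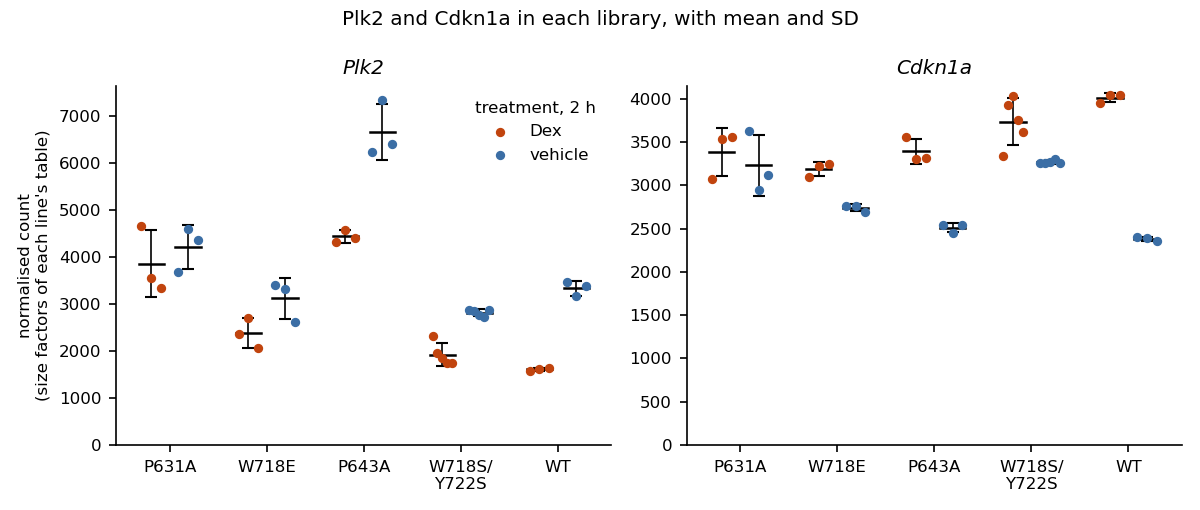
Normalised counts (y axis, size factors of the table of each line) of Plk2 (left) and Cdkn1a (right) in every Dex and vehicle library of the 5 lines (x axis); bars are mean ± SD. For Plk2 the Dex libraries lie below the vehicle libraries in P643A, W718S/Y722S and WT, and for Cdkn1a they lie above in every line but P631A.

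Cdkn1a lies on chromosome 17 (29093769 to 29100722, plus strand). In P631A it had 3068, 3537 and 3559 normalised counts in Dex libraries, against 3623, 2947 and 3118 in vehicle libraries. The groups overlapped, with the lowest Dex value in the same library that had the highest Plk2. In W718E it had 3090, 3225 and 3247 in Dex libraries, against 2758, 2764 and 2691 in vehicle libraries. In P643A it had 3556, 3306 and 3315 in Dex libraries, against 2540, 2449 and 2543 in vehicle libraries. All Dex libraries of these 2 lines lay above all vehicle libraries. Groups without overlap made up 11.7% of tested genes in W718E and 11.1% in P631A.

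In W718S/Y722S, Cdkn1a had 3341, 3931, 4034, 3758 and 3611 normalised counts in Dex libraries, against 3257, 3254, 3264, 3306 and 3254 in vehicle libraries. The lowest Dex value, again from the library that stood apart, was just above the highest vehicle value. In WT it had 3948, 4040 and 4038 in Dex libraries, against 2397, 2396 and 2358 in vehicle libraries. The log2 change was 0.22 ± 0.03 (SE) for W718E, 0.43 ± 0.03 for P643A and 0.19 ± 0.04 for W718S/Y722S, and 0.23 in the last without Dex replicate 1. That of P631A was 0.14 without its Dex replicate 1. Set against WT, the difference was -0.68 ± 0.09 for P631A (-0.61 without Dex replicate 1), -0.53 ± 0.04 for W718E, -0.32 ± 0.04 for P643A and -0.56 ± 0.06 for W718S/Y722S (-0.52 without Dex replicate 1). As shares of the WT log2 change, Plk2 and Cdkn1a reached 55.6% and 57.8% in P643A, 37.3% and 29.2% in W718E, and 13.3% and 9.52% in P631A. In W718S/Y722S the shares were 53% for Plk2 and 25.3% for Cdkn1a, the widest gap between these genes in any line; whether the shares differ was not tested. Exons of Cdkn1a share 273 bases (7.68%) with the gene AC167363.2 on the opposite strand, and those reads cannot be told apart either.

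Mdm2 and Ccng1 feed back on p53. Mdm2, the ubiquitin ligase that marks p53 for degradation, lies on chromosome 10 (117688875 to 117710758, minus strand), and Ccng1, cyclin G1, which brings a phosphatase to Mdm2, lies on chromosome 11 (40748552 to 40755286, minus strand). The log2 change of Mdm2 was 0.01 ± 0.04 (SE) in P631A, -0.05 ± 0.04 in W718E, 0.04 ± 0.04 in P643A, -0.02 ± 0.04 in W718S/Y722S and -0.09 ± 0.04 in WT. In WT it had 1860, 2030 and 1944 normalised counts in Dex libraries, against 2043, 2068 and 2114 in vehicle libraries. These WT groups did not overlap, while those of the 4 mutant lines did. The log2 change of Ccng1 was between 0.02 ± 0.05 in P631A and 0.09 ± 0.03 in P643A, and only in P643A did its groups not overlap. Ccng1 was the highest of the 8 per length in P631A and WT, at 2432 (SD 102) and 1716 (SD 27.6) normalised counts per kb with vehicle.

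Aen, Trp53inp1 and Phlda3 act downstream of p53 in cell death and survival signalling. Aen encodes a nuclease that promotes apoptosis and lies on chromosome 7 (78896058 to 78911209, plus strand). It had 2398, 2505 and 2408 normalised counts in P643A Dex libraries, against 2163, 2183 and 2203 in P643A vehicle libraries. Its log2 change was 0.16 ± 0.03 (SE) in P643A, 0.13 ± 0.03 in W718S/Y722S and 0.12 ± 0.04 in WT, with no overlap in these 3 lines. In P631A it was 0.09 ± 0.05 and in W718E 0.02 ± 0.04, with overlap. Phlda3, a small lipid-binding protein that competes with the kinase Akt at the membrane, lies on chromosome 1 (135766085 to 135769134, plus strand). It had 2287, 2254 and 2090 normalised counts in P643A Dex libraries, against 1923, 1823 and 1905 in P643A vehicle libraries. In WT it had 2619, 2572 and 2648 in Dex libraries, against 2294, 2205 and 2241 in vehicle libraries. Dex lay above vehicle in both lines, with log2 changes of 0.23 ± 0.04 in P643A and 0.22 ± 0.03 in WT, and 0.09 to 0.10 in the other 3 lines, whose groups overlapped.

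Trp53inp1 encodes a stress-induced protein with roles in autophagy and apoptosis and lies on chromosome 4 (11156441 to 11174379, plus strand). Its mean was higher with Dex in W718E, P643A and WT, and lower in W718S/Y722S and, only with Dex replicate 1 included, in P631A. In W718S/Y722S it had 716, 713, 741, 657 and 691 normalised counts in Dex libraries, against 828, 802, 796, 720 and 766 in vehicle libraries. Those groups overlapped, with the Dex libraries mostly lower and a log2 change of -0.15 ± 0.04 (SE), or -0.16 without Dex replicate 1. In P643A it had 720, 687 and 679 in Dex libraries, against 666, 559 and 587 in vehicle libraries. In WT it had 2487, 2794 and 2762 in Dex libraries, against 2013, 2193 and 2167 in vehicle libraries. Dex lay above vehicle in both, with log2 changes of 0.21 ± 0.06 in P643A and 0.33 ± 0.04 in WT. In W718E, with 0.16 ± 0.07, and in P631A, with -0.05 ± 0.10, the groups overlapped as well. Without Dex replicate 1 the value of P631A turned to 0.09. Set against WT, the difference was -0.39 ± 0.13 for P631A (-0.24 without Dex replicate 1), -0.18 ± 0.08 for W718E, -0.13 ± 0.08 for P643A and -0.49 ± 0.07 for W718S/Y722S.

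**Figure D3:**
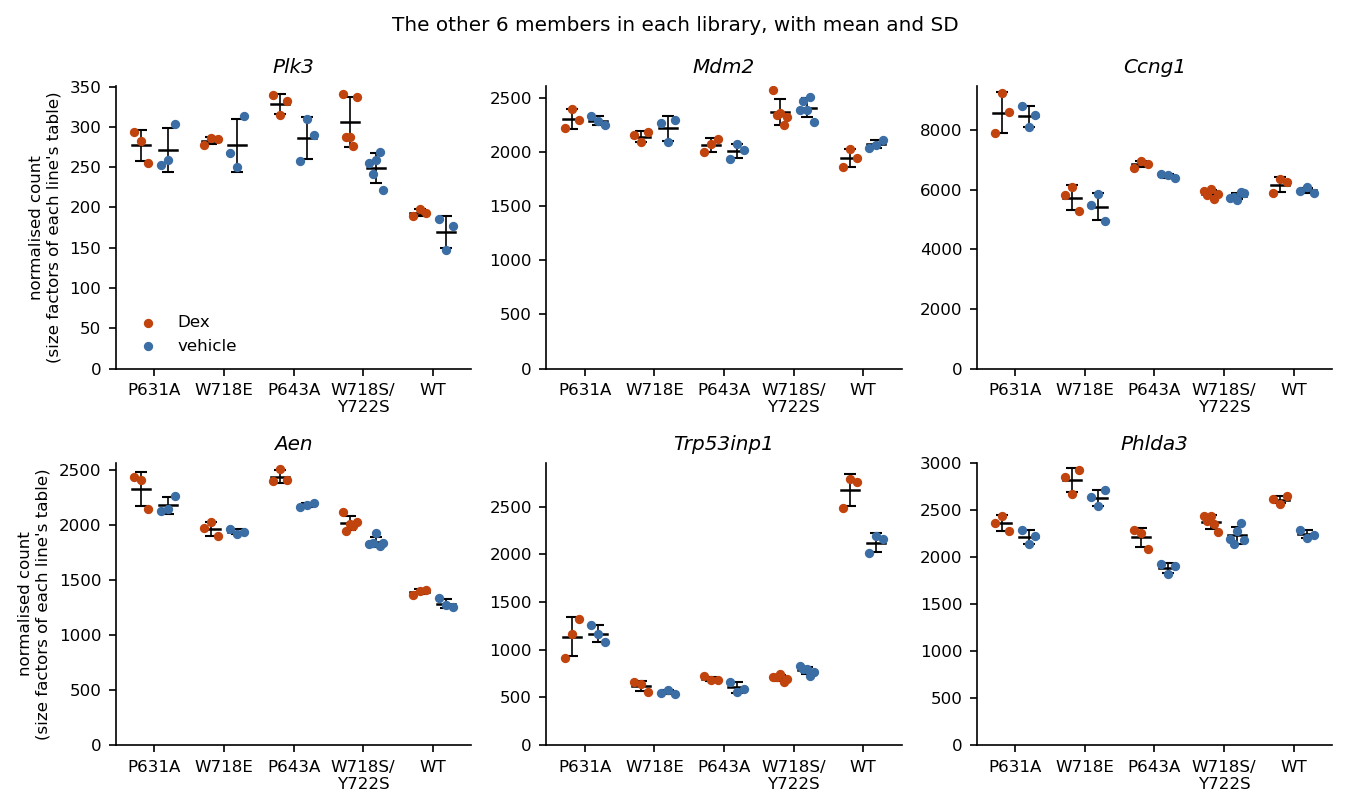
Normalised counts (y axis, size factors of the table of each line) of Plk3, Mdm2, Ccng1, Aen, Trp53inp1 and Phlda3 in every Dex and vehicle library of the 5 lines (x axis); bars are mean ± SD. Trp53inp1 is mostly lower with Dex in W718S/Y722S and higher in WT (2487 to 2794 in Dex libraries and 2013 to 2193 in vehicle libraries), and Mdm2 overlaps in all lines but WT.

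Before any hormone effect, the lines differed in their vehicle levels. The choice of genes did not compare these levels between lines, but the same vehicle libraries entered the changes that chose the genes. The tables were normalised separately, so these levels were recomputed with size factors over all 34 libraries and are given without a test. In bulk RNA, fewer cells that express a gene and less RNA per cell cannot be told apart. Plk2 averaged 6019 ± 540 (SD, n = 3) in P643A vehicle libraries and 3166 ± 137 in WT vehicle libraries (n = 3), so that P643A stood at 190% of WT. The Plk2 means of P631A (3777 ± 414), W718S/Y722S (3378 ± 80.6, n = 5) and W718E (2995 ± 415) were 119%, 107% and 94.6% of WT, and libraries of neighbours in this order, WT included, overlapped. Trp53inp1 averaged 532 ± 23 in W718E, 545 ± 50.1 in P643A, 938 ± 48.5 in W718S/Y722S and 1046 ± 79.5 in P631A, against 2017 ± 99.4 in WT. W718E did not differ from P643A beyond their spread, nor W718S/Y722S from P631A, and all 4 mutant lines lay below WT, at 26.4% to 51.8% of it.

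Cdkn1a averaged 3915 ± 32.2 (SD, n = 5) in W718S/Y722S vehicle libraries, 2891 ± 321 in those of P631A, 2625 ± 40.3 in those of W718E, 2264 ± 48 in those of P643A and 2263 ± 18.9 in those of WT (n = 3 each). P643A and WT were level at 100%, while W718S/Y722S with vehicle was at 173% of WT vehicle. Libraries of P631A and W718E overlapped. Aen was at 152% to 181% of WT and Plk3 at 151% to 185% in the mutant lines, and every mutant vehicle library lay above every WT one for both genes. Mdm2 was at 147% of WT in W718S/Y722S and at 92% to 108% in the other lines. Ccng1 was at 134% in P631A and Phlda3 at 79.7% in P643A. Rn45s, the precursor of ribosomal RNA, made up 13.8 to 18.3% of exon counts in the mutant lines and 9.95 to 11.3% in WT; its part in these levels was not tested.

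**Figure D4:**
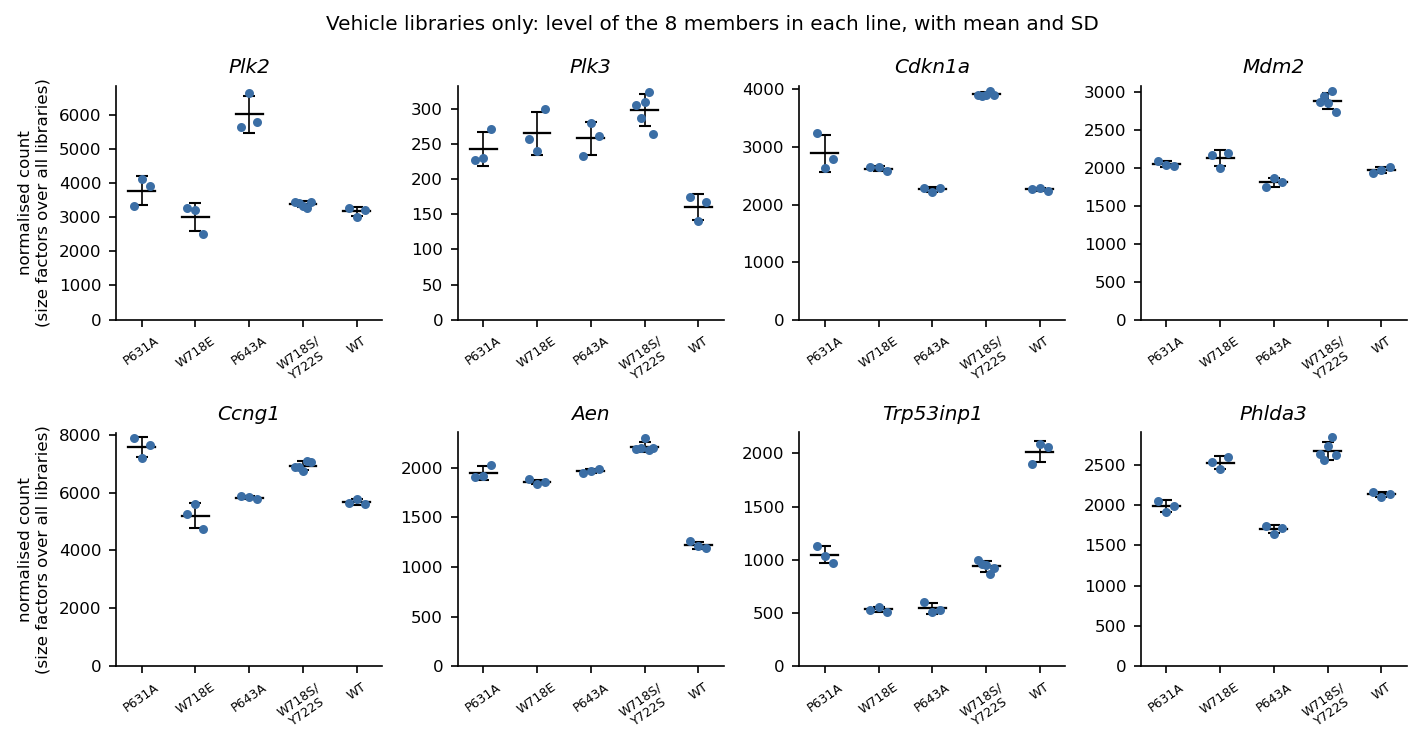
Level of the 8 genes in vehicle libraries only (y axis, normalised counts with size factors over all libraries) in each line (x axis); points are libraries and bars are mean ± SD (n = 3, 5 for W718S/Y722S). Plk2 is highest in P643A, Cdkn1a and Mdm2 in W718S/Y722S, and Trp53inp1 in WT, while Plk3 and Aen are lowest in WT.

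Of the other p53 targets, up to 4 passed the test in a line, in both directions. This list and the further lists below were chosen with earlier results of these data known, which their p-values do not take into account. Of 34 further targets, 0 were called in P631A (32 tested, 1 with an unadjusted p under 0.05) and 0 in W718E (32 tested, 3 under 0.05). The shares of all tested genes called in these lines were 0.221% and 0.524%. In P643A, 1 of 32 was called higher and 0 lower (6 under 0.05), beside 4.78% of all tested genes called. In W718S/Y722S, 0 of 31 were called higher and 3 lower (8 under 0.05), beside 4.79% of all, and without Dex replicate 1 it was 1 higher and 4 lower. In WT, 2 of 31 were called higher and 2 lower (7 under 0.05), beside 6.70% of all, and without Dex replicate 1 it was 2 higher and 3 lower. The median log2 change of the list was between -0.03 and 0.02, against 0.00 for all tested genes in every line.

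Among them Sesn1, a sestrin that restrains mTORC1 signalling and a target of both p53 and FoxO factors, had the largest change. In P643A it had 505, 547 and 509 normalised counts in Dex libraries, against 392, 333 and 370 in vehicle libraries, and rose with a log2 change of 0.51 ± 0.07 (SE, limma adjusted p = 1.16e-06). WT had 1667, 1768 and 1756 in Dex libraries, against 698, 745 and 684 in vehicle libraries, and Sesn1 rose there by 1.29 ± 0.04 (limma adjusted p = 6.97e-14). The Dex libraries lay above the vehicle libraries in both lines, with the wider gap in WT. In W718E its change was 0.26 ± 0.09 (limma adjusted p = 0.66, and 0.0259 with the replicate number as a block), in W718S/Y722S 0.21 ± 0.07 (0.0794) and in P631A 0.08 ± 0.08 (0.937). By limma's contrast of the changes, that of Sesn1 was below WT in each mutant line: by -1.20 ± 0.09 for P631A (adjusted p = 2.42e-08), -1.03 ± 0.11 for W718E (4.19e-06), -0.77 ± 0.08 for P643A (4.7e-07) and -1.08 ± 0.09 for W718S/Y722S (2.43e-08). Differences from WT were called for 1.98% of tested genes for P631A (0.527% higher in the mutant and 1.46% lower), 1.80% for W718E (0.513% and 1.29%), 1.58% for P643A (0.590% and 0.986%) and 1.74% for W718S/Y722S (0.452% and 1.29%). These Sesn1 calls held without any single library.

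The 3 targets that fell in W718S/Y722S were Bbc3, Gdf15 and Btg2. Bbc3, which encodes the pro-apoptotic protein Puma, averaged 251 ± 12.3 (SD, n = 5) in Dex libraries and 381 ± 31.1 in vehicle libraries, a log2 change of -0.60 ± 0.06 (limma adjusted p = 4.61e-06). In WT it averaged 302 ± 10.2 in Dex libraries and 326 ± 16.6 in vehicle libraries (log2 change -0.11 ± 0.07, limma adjusted p = 0.475), and the difference of W718S/Y722S from WT, -0.49 ± 0.09, passed the test (adjusted p = 0.00403). Gdf15, a secreted stress cytokine, fell by 0.82 on the log2 scale with 38.9 ± 6.14 in Dex libraries and 69.2 ± 10.3 in vehicle libraries (limma adjusted p = 0.00136). Btg2, an antiproliferative factor, changed by -0.38 ± 0.10 (limma adjusted p = 0.0183), and was not called without vehicle replicate 5 (0.0548). In WT the other calls were small: Sulf2, a heparan sulfatase, rose by 0.15 ± 0.04, and Tigar, which limits glycolysis, and Sertad1, a cofactor of cyclin-dependent kinase 4, fell by 0.26 and 0.35 (limma adjusted p 0.0106 to 0.0163). Each of these 3 calls was lost without some single WT library: vehicle replicate 2 for Tigar, Dex replicate 3 or vehicle replicates 1 or 3 for Sulf2, and Dex replicates 2 or 3 or vehicle replicate 1 for Sertad1, with adjusted p up to 0.0807, 0.0828 and 0.096.

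Trp53, the gene of p53 itself, was not called in any line: its log2 change was -0.06 ± 0.04 (SE) in P631A, -0.03 ± 0.03 in W718E, -0.07 ± 0.03 in P643A, 0.01 ± 0.05 in W718S/Y722S and -0.01 ± 0.03 in WT (limma adjusted p 0.249 to 0.957). Of 20 genes of p53 and its regulators, 17 or 18 were tested. In P643A, W718S/Y722S and WT 1 was called, with 3, 2 and 3 at an unadjusted p under 0.05. The shares of all tested genes called there were 4.78%, 4.79% and 6.70%. In P631A and W718E 0 were called, each with 1 gene at an unadjusted p under 0.05, beside 0.221% and 0.524% of all. The list median was between -0.04 and 0.02. The called gene was Hipk2, a kinase that phosphorylates p53. Hipk2 averaged 1480 ± 93.2 (SD, n = 5) in W718S/Y722S Dex libraries and 999 ± 62.3 in vehicle libraries, a log2 change of 0.57 ± 0.05 (limma adjusted p = 2.49e-07). The change was 0.38 ± 0.04 in P643A (6.53e-09) and 0.29 ± 0.06 in WT (0.00297). In W718E, Hipk2 was called with the replicate block alone (adjusted p 0.000629, and 0.752 without it).

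Of 11 other polo-like kinases and centriole genes, 10 were tested and 1 passed in P643A, W718S/Y722S and WT, with a list median between -0.02 and 0.03. In these lines 2, 1 and 2 had an unadjusted p under 0.05, beside 4.78%, 4.79% and 6.70% of all tested genes called. Without WT Dex replicate 1, 0 were called higher and 1 lower in WT. In P631A and W718E 0 were called, with 0 and 1 at an unadjusted p under 0.05, beside 0.221% and 0.524% of all. Plk1 had log2 changes between -0.07 and 0.03 and Plk4, the master regulator of centriole duplication, between -0.01 and 0.04, and neither was called in any line. Plk5 had 0 counts in every library. The called gene was Cenpj, a centriole protein that Plk2 phosphorylates in human cells. Cenpj rose by 0.33 ± 0.06 (SE) in W718S/Y722S (limma adjusted p = 0.00147), by 0.24 ± 0.06 in P643A (0.0105) and by 0.24 ± 0.06 in WT (0.0165). The P643A call was lost without Dex or vehicle replicate 3 and the WT call without Dex replicate 1 or vehicle replicates 1 or 2, with adjusted p up to 0.108 and 0.0806.

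Among 20 inhibitors of cyclin-dependent kinases, G1 cyclins and partners, 18 were tested and 0 were called in P631A, W718E and P643A. There 1, 1 and 3 had an unadjusted p under 0.05, beside 0.221%, 0.524% and 4.78% of all tested genes called. In W718S/Y722S, 1 was called higher and 2 lower (8 under 0.05), beside 4.79% of all tested genes called, with a list median of -0.01. In WT, 1 was called higher and 2 lower (11 under 0.05), beside 6.70% of all, with a list median of -0.08. Without W718S/Y722S Dex replicate 1 the counts of that line were 1 higher and 4 lower. Those of WT were 1 higher and 3 lower without its Dex replicate 1. Cdkn1b, which encodes p27, the relative of p21, fell in WT to 4572 ± 104 (SD, n = 3) in Dex libraries, against 5253 ± 49.1 in vehicle libraries (log2 change -0.20 ± 0.03, limma adjusted p = 5.8e-05), where Cdkn1a was higher. Ccnd3 rose by 0.15 ± 0.04 and Ccnd1, both G1 cyclins, fell by 0.09 in WT (0.0101 and 0.0454). In the limma fit on the recovered counts Ccnd1 was not called (adjusted p = 0.0563). The Ccnd3 call was lost without WT vehicle replicate 2 (0.0779), and the Ccnd1 call in 5 of 6 fits that left out 1 library, holding only without Dex replicate 1 (up to 0.217). In W718S/Y722S, Pcna rose by 0.10 ± 0.02 and Ccng2 and Cdkn2b fell by 0.42 and 0.17 (limma adjusted p 0.0205 to 0.0303). Without vehicle replicate 5 none of these 3 was called. The Ccng2 call was also lost without vehicle replicate 3 (adjusted p up to 0.0742) and the Cdkn2b call without Dex replicate 3 (up to 0.0675). The Pcna call held in 3 of 10 fits with 1 library left out, those without Dex replicates 1 or 5 or vehicle replicate 4 (up to 0.0872).

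Phlda1, a relative of Phlda3 with a pleckstrin homology-like domain, passed the test in every line but P631A. It fell by 0.25 on the log2 scale in W718E (SE 0.04, limma adjusted p = 0.0188), by 0.27 in P643A (SE 0.04, 2.53e-06) and by 0.64 in W718S/Y722S (SE 0.07, 8.1e-06), and its change in P631A was -0.09 ± 0.08 (0.936). WT had 828, 821 and 865 normalised counts in Dex libraries, against 1825, 1722 and 1701 in vehicle libraries, and Phlda1 fell there by 1.06 (SE 0.04, limma adjusted p = 1.12e-12). The W718E call was lost without Dex replicates 1 or 2 or vehicle replicate 1 (adjusted p up to 0.177). Set against WT, its change differed by 0.97 ± 0.10 for P631A (limma adjusted p = 2.74e-06), 0.81 ± 0.06 for W718E (2.62e-08), 0.79 ± 0.05 for P643A (3.9e-10) and 0.42 ± 0.11 for W718S/Y722S (0.0394). The last call was lost without any 1 of the 6 WT libraries or of W718S/Y722S vehicle replicates 2 to 5 (adjusted p up to 0.142). Of its list, Phlda2 was under the filter and Trp53inp2 was not called in any line (with the replicate block it was called in W718E, limma adjusted p = 0.002).

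**Figure D5:**
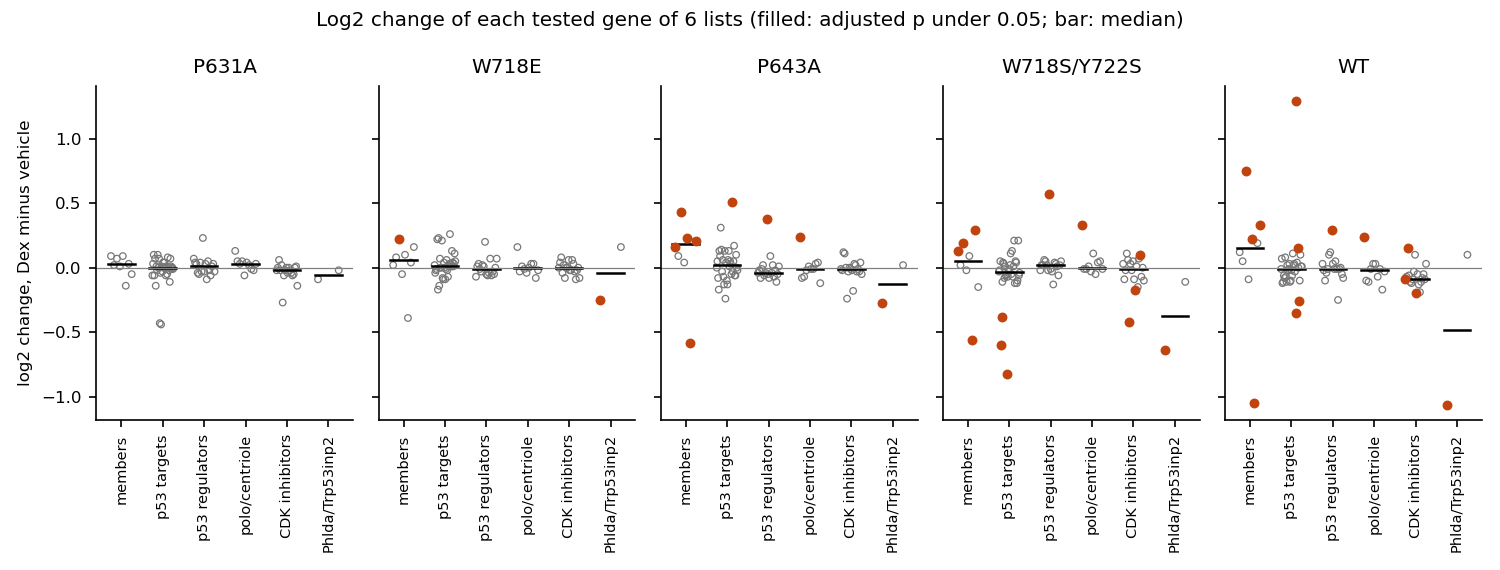
Log2 change with Dex (y axis) of every tested gene of the 8 members and of 5 further lists (x axis) in each line (panels); filled points have a limma adjusted p under 0.05 over all tested genes and black bars are list medians. The medians of the further p53 targets lie between -0.03 and 0.02, with Sesn1 (1.29) far above the others in WT.

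By Euclidean distance over the 5 log2 changes, among 9912 further genes with a mean of at least 100 normalised counts in every line, the nearest to Plk2 was Phlda1, at 0.36. It was followed by Dusp4, a phosphatase that switches off MAP kinases (0.38), the transcription factor Klf4 (0.46), Ankrd1, a nuclear cofactor (0.57), and the neurotrophin gene Bdnf (0.58). A gene with no change would lie 1.39 away. The log2 changes of Dusp4 were -0.45 in P631A, -0.46 in W718E, -0.47 in P643A, -0.57 in W718S/Y722S and -0.87 in WT, a flatter series than that of Plk2. The nearest to Cdkn1a was the adaptor gene Sh2b2, at 0.13, then Adra1b, an adrenergic receptor (0.15), the transcription factors Foxo3 and Runx3 (0.21 each) and the growth factor gene Vegfd (0.22), with no change at 0.92. The log2 change of Sh2b2 was -0.03 in P631A and 0.79 in WT, beside 0.07 and 0.75 for Cdkn1a. These genes were picked by likeness to a pattern that was itself used in choosing Plk2 and Cdkn1a.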

How the data were processed

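Total RNA of 34 libraries in 5 lines was measured, with 1 deposited table per line. Per the labels' protocols, libraries came from a stranded total RNA kit. Per the submitters' processing notes, cutadapt, STAR 2.7.0f, HOMER 4.10.4 and the build mm10 were used. Per the file headers, reads were counted in exons of RefSeq transcripts, 1 per gene, without length adjustment. Values in the deposited library columns are on a log2 scale and were normalised by the authors table by table; the transform is not given in the sources used here. The authors also deposited a p-value per gene, which was not used here.

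The deposited log2 values were shrunken toward each gene's mean. Fitting that shrinkage and rounding gave read counts: 99.7708 to 100% of values of genes with a mean count under 1000 lay within 0.1 of a whole number, and 81.0 to 90.2% for means of 1000 to 10000. Log2 changes from these counts differed from the authors' by a median of 0.00105 to 0.00142. Size factors are median ratios within each table or, for vehicle levels, over all libraries on 12713 genes.

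Dex was compared with vehicle in each line by limma 3.58.1 (R 4.3.3, eBayes with trend) fitted to the log2 columns, for genes whose unlogged value reached 10 in at least n libraries, n being the size of the smaller group. Differences from WT are limma contrasts over 4 group means on log2 of the recovered count plus 1. Benjamini-Hochberg adjusted p under 0.05 was called. The fits within a line were also run on a simulated set like WT, 3 against 3 libraries. It was shrunken by the same model that the recovery inverts, so it does not test that model. It held no library that stood apart and did not cover 5 against 5.

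The 8 members and the gene lists were chosen with earlier results of these data known. Named genes are the 8, up to 6 called genes of each list per line with the largest changes, Trp53, the other polo-like kinases, the 5 genes nearest to Plk2 and to Cdkn1a, and glucocorticoid check genes. Same-numbered libraries deviated together only in W718E (correlations 0.106 to 0.586 over 10340 genes, every pair over 0.1), where the pairing was read from the data. Alternatives were the deposited or recovered scale, no filter, a replicate block, each library left out, a pseudocount of 8 and exon totals without Rn45s. Promoter sequences are RefSeq's for mm10 (GRCm38), matched by symbol. Python 3.11.15 with numpy 2.4.6, pandas 2.3.3, scipy 1.17.1 and matplotlib 3.10.9 was used.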

Additional observations from a re-analysis of the deposited data

Results flagged for a closer look

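Among the 16 groups of 5 libraries (8 genes in W718S/Y722S Dex and vehicle), 2 held a library far from the other 4. Chance flags about 1 in 20 separate groups, but these genes share the same libraries, so whether 2 is an excess was not tested. Cdkn1a had 3306 normalised counts in W718S/Y722S vehicle replicate 4, against 3254 to 3264 in the others, a small gap in a very tight group. Aen had 1925 in W718S/Y722S vehicle replicate 3, against 1812 to 1840 in the others.

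In the further lists, changes with Dex that differed from WT by limma's contrast were picked out. For Sesn1 the difference was -1.20 for P631A, -1.03 for W718E, -0.77 for P643A and -1.08 for W718S/Y722S. For Phlda1 it was 0.97, 0.81, 0.79 and 0.42 in the same order. The Phlda1 difference of W718S/Y722S was called in 6 of 16 fits that left out 1 library and had an adjusted p of 0.0894 on the deposited log2 values. Bbc3 differed by -0.49 in W718S/Y722S, and this was called in 16 of 16 such fits. Gdf15 differed by -1.41 in W718S/Y722S at 5.12 ± 0.667 (SD) in WT Dex libraries and 3.39 ± 2.32 in WT vehicle libraries; the call was lost without W718S/Y722S Dex replicates 4 or 5 or vehicle replicates 1 to 4, or WT Dex replicates 1 or 2 or vehicle replicates 2 or 3 (adjusted p up to 0.118). Sertad1 differed by 0.35 in W718S/Y722S, called in 4 of 16, those without W718S/Y722S Dex replicate 1, vehicle replicates 2 or 4 or WT Dex replicate 1 (up to 0.155). On the deposited log2 values its limma adjusted p was 0.252. In the other lines Sertad1 differed by 0.29 (P631A), 0.38 (W718E) and 0.30 (P643A), and was not called. Pcna differed by 0.18 in W718S/Y722S, called in 14 of 16, with WT Dex replicate 3 and vehicle replicate 3 ending the call (up to 0.0686). Cdkn1b differed by 0.18 in P643A, called in 12 of 12. In W718E it differed by 0.18 too, called in 4 of 12, those without W718E Dex replicate 2, vehicle replicates 2 or 3 or WT Dex replicate 2 (up to 0.101). Bax, a pro-apoptotic p53 target, differed by 0.21 in P631A, called in 4 of 12, those without a P631A Dex replicate or WT Dex replicate 2 (up to 0.0956).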

How the results depend on the processing

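Only on the deposited, shrunken log2 values did a member's log2 change or difference from WT move by more than the spread between replicates. There 19 of the 40 changes and 14 of the 32 differences did, and the WT changes were -0.68 for Plk2 and 0.52 for Cdkn1a. For the replicate block and for leaving out 1 library, this says nothing about the changes. The block leaves a change as it is. With 3 or 5 libraries a group, leaving out 1 cannot move a change past that spread. Within that spread, leaving out P631A Dex replicate 1 turned the P631A changes of Trp53inp1 (-0.05) and Plk3 (0.03) to 0.09 and -0.01; other members' values that changed sign under an alternative stayed within 0.06 of 0. Without the filter, the called counts (higher and lower) were 31 higher in W718E, 143 and 30 in P643A, 274 and 153 in WT, 10 lower in P631A and 141 lower in W718S/Y722S, and the further p53 targets had 0 higher in P643A, and 1 higher and 0 lower in WT. For the differences from WT without the filter they were 29 and 120 in P631A, 28 and 103 in W718E, 38 and 77 in P643A and 29 higher in W718S/Y722S, with 0 further p53 targets higher in P631A and W718S/Y722S. On the deposited log2 values the differences were 108 higher in W718E with 1 p53 target, 209 lower in P643A, and 0 p53 targets higher in W718S/Y722S. With the replicate block the counts were 5 higher and 0 lower in P631A, and 167 and 121 in W718E with 1 p53 target higher; the differences were 35 higher in P631A with 0 p53 targets, 131 higher in W718E and 0 p53 targets higher in W718S/Y722S. The block changed the calls of 4 members: Plk2 in W718E and, in lines whose numbers do not pair, Ccng1 in P643A and Trp53inp1 in W718S/Y722S gained one, while Plk3 in W718S/Y722S lost it. Leaving out 1 library gave 12 to 43 higher and 2 to 6 lower in P631A, 28 to 69 and 0 to 11 in W718E, 231 to 478 and 181 to 493 in W718S/Y722S and 233 to 610 lower in WT; the counts were lowest without vehicle replicate 5 and highest without Dex replicate 1 in W718S/Y722S, and in WT lowest without vehicle replicate 1 and highest without Dex replicate 1. The p53 targets ranged from 0 to 1 higher in W718E and W718S/Y722S, 1 to 2 higher in P643A and WT, and 1 to 3 lower in WT. The differences from WT ranged from 35 to 93 higher in P631A, 40 to 74 in W718E and 36 to 110 in W718S/Y722S, with p53 targets at 0 to 2 in P631A and 0 to 1 in W718S/Y722S. The causes were not tested. With 3 libraries a group, the SD of Plk2 reached 714 in P631A with Dex and 598 in P643A with vehicle; detectable sizes were not tested.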
